A study of Homo sapiens with 26 samples.

Results

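The 10 genes described here encode the core of the G1 checkpoint, namely the D-type cyclins CCND1, CCND2 and CCND3, their partners CDK4 and CDK6, the E-type cyclins CCNE1 and CCNE2 with their partner CDK2, the inhibitor CDKN1B (p27) and the retinoblastoma protein RB1. They were chosen by symbol from the 26485 genes of the count tables, and all 10 passed the filter on low counts in cell culture and in xenografts. RNA was sequenced from KELLY cells, a long-established line from a MYCN-amplified human neuroblastoma. Stable lines carried a doxycycline-inducible lentiviral vector (pFH1UTG, which also encodes green fluorescent protein) that was empty (EV, spelled F1HUTG or FH1UTG in the labels) or held a short hairpin RNA against RUNX1T1, a transcriptional co-repressor, named sh4 or shAMB. Each of the 3 lines was kept for 72 h with DMSO or with doxycycline in 3 libraries per group, which gave 18 libraries in 6 groups. The other 8 libraries came from KELLY tumours grown under the skin of young female NSG mice, a strain without T, B or natural killer cells. Of these, 4 were labelled Control, WT and Control Food, and 4 were labelled RUNX1T1 KO and Doxycycline Food. The methods of the study describe hairpin-carrying cells for the xenografts, so that "KO" names a label here. The xenograft labels name no hairpin, and the text of the study gives, for RNA sequenced from animals, the hairpin built on an Ambion siRNA.

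In early G1, mitogens and MYC proteins raise D-type cyclins, which activate CDK4 and CDK6. These kinases begin the phosphorylation of RB1, which otherwise holds E2F transcription factors in check. Freed E2F factors raise E-type cyclins, whose complexes with CDK2 complete the phosphorylation of RB1 and start replication, while CDKN1B binds and blocks CDK2 complexes and also binds those of CDK4 and CDK6. In neuroblastoma this pathway is known for frequent gains of CCND1 and CDK4 and for high CDK6 in some lines. Withdrawal from G1 in differentiating neuroblasts is known to go with a rise of p27 protein.

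The RNA of the targeted gene did not separate the groups as their labels do. RUNX1T1 stood at 41.9 ± 2.41 CPM (counts per 1000000 of the library total, with totals scaled by TMM, given as mean ± SD) with DMSO and 37.6 ± 1.05 CPM with doxycycline in EV (n = 3 each). In sh4 it was 34.3 ± 0.898 and 31.8 ± 1.94 CPM (log2 fold change −0.11, edgeR adjusted p = 0.117), and in shAMB 40.9 ± 1.04 and 42.5 ± 1.41 CPM (0.06, edgeR adjusted p = 0.378). In the xenografts it was 35.5 ± 5.51 CPM in those labelled Control and 30.2 ± 5.19 CPM in those labelled RUNX1T1 KO (n = 4 each, log2 fold change −0.23, edgeR adjusted p = 0.229). All directions below are therefore those of the libraries labelled doxycycline or RUNX1T1 KO, with no lowered RUNX1T1 RNA shown by a test. The study does report lowered RUNX1T1 protein with doxycycline in KELLY cells that carry its hairpins, and loss of RUNX1T1 staining in KELLY xenografts. RNA counts cannot tell whether the protein was lower in the samples sequenced here, so the values above do not show that the knockdown failed. Library totals were 35115908 to 54736731 counts for the culture libraries and 47346057 to 62378057 for the xenografts. Replicate 3 of sh4 with doxycycline stood apart from replicates 1 and 2, with a chi-square per degree of freedom of 62.7 and 45.9 against 6.11 between those 2, so results for sh4 are also given without it.

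Per length, CDK4 was the most abundant of the 10 genes in all 6 cell culture groups. Its group means were 122 to 147 CPM per kb, the level scaled by the deposited gene length, against 56.2 to 84.8 CPM per kb for CCND1, which came next without overlap in every group. Averaged over the culture libraries, CDK4 stood at percentile 96.8 of all genes tested, CCND1 at 92.4, CDK6 at 87.0, CDKN1B at 86.2 and CDK2 at 86.1. CCND3, the third D-type cyclin, was at 3.76 to 6.13 CPM per kb, and CCND2 at 0.00395 to 0.0796 CPM per kb was the lowest of the 10 in every group. In the xenografts CDK6 came first, at 111 ± 10.4 CPM per kb in those labelled Control and 139 ± 15.0 CPM per kb in those labelled RUNX1T1 KO. CDK4 followed there at 101 ± 6.53 and 65.4 ± 8.36 CPM per kb, and the 2 kinases overlapped in the Control xenografts but not in those labelled RUNX1T1 KO. The culture and xenograft tables were normalised separately, so no test was made between them.

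A member is called higher or lower where its adjusted p-value in the edgeR test, taken over all genes tested, was under 0.05. With doxycycline in the EV line 0 of 10 members passed, where 0.0939% of all 14905 genes tested did. At an unadjusted p under 0.05 there was 1 member, CCND1 at −0.07 on the log2 scale, and 5.9% of all genes, and DESeq2 also called 0 members. In the sh4 line 8 of 10 were called, 4 higher and 4 lower, where 40.9% of all genes were called, 22.9% higher and 18% lower. CCNE1, CCNE2, CDK6 and RB1 were higher, and CCND1, CCND3, CDK2 and CDKN1B were lower. Replicate 3 of sh4 with doxycycline changed none of these 8 calls when left out. In the shAMB line 5 of 10 were called, 3 higher (CCND1, CCND2, CDKN1B) and 2 lower (CCNE1, CDK2), where 66% of all genes were called, 37.6% higher and 28.4% lower. With TPM values in place of counts CCNE1 and CDK2 did not pass in shAMB. With GC content and length trends removed all 10 members passed there, where 4231 of all genes were called higher and 6328 lower.

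In the xenografts labelled RUNX1T1 KO 7 of 10 members were called, 3 higher (CCND2, CDK6, CDKN1B) and 4 lower (CCND1, CCNE1, CDK4, CDK2), where 41.1% of the 15960 genes tested were called, 21.2% higher and 19.9% lower. CCND2 entered the tested genes of cell culture only through the shAMB libraries with doxycycline. In the xenografts it entered only with the help of the libraries labelled RUNX1T1 KO, where it was high. Its calls are therefore no support for a count. Without CCND2 the counts were 8 of 9 for sh4, 4 of 9 for shAMB and 6 of 9 for the xenografts. The median log2 fold change of the 9 genes was −0.04 for sh4, 0.06 for shAMB and −0.26 for the xenografts, against −0.005, 0.10 and 0.02 over all genes tested. Of the 4 members called in all 3 of these comparisons (CCND1, CCNE1, CDK2 and CDKN1B), CDK2 alone had 1 sign throughout. CCND1, CCNE1 and CDKN1B had opposite signs in sh4 and shAMB, except that CCND1 took the other sign in each line once GC content and length trends were removed. On TPM values, with limma, 0 of 9 members passed in the xenografts (0 also at an unadjusted p under 0.05), against 7 of 10 with edgeR and with DESeq2 on counts. Calls over all genes fell there too, from 3382 higher and 3173 lower with edgeR to 379 higher and 340 lower. That loss was thus not particular to the members. The deposited TPM stood on unlike scales between xenograft libraries. CCND1 was at 34.7 CPM per kb and 11.6 TPM in Control replicate 2, but at 25.8 CPM per kb and 17.9 TPM in RUNX1T1 KO replicate 2. The part of these scales in the loss of calls was not tested.

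**Figure D1:**
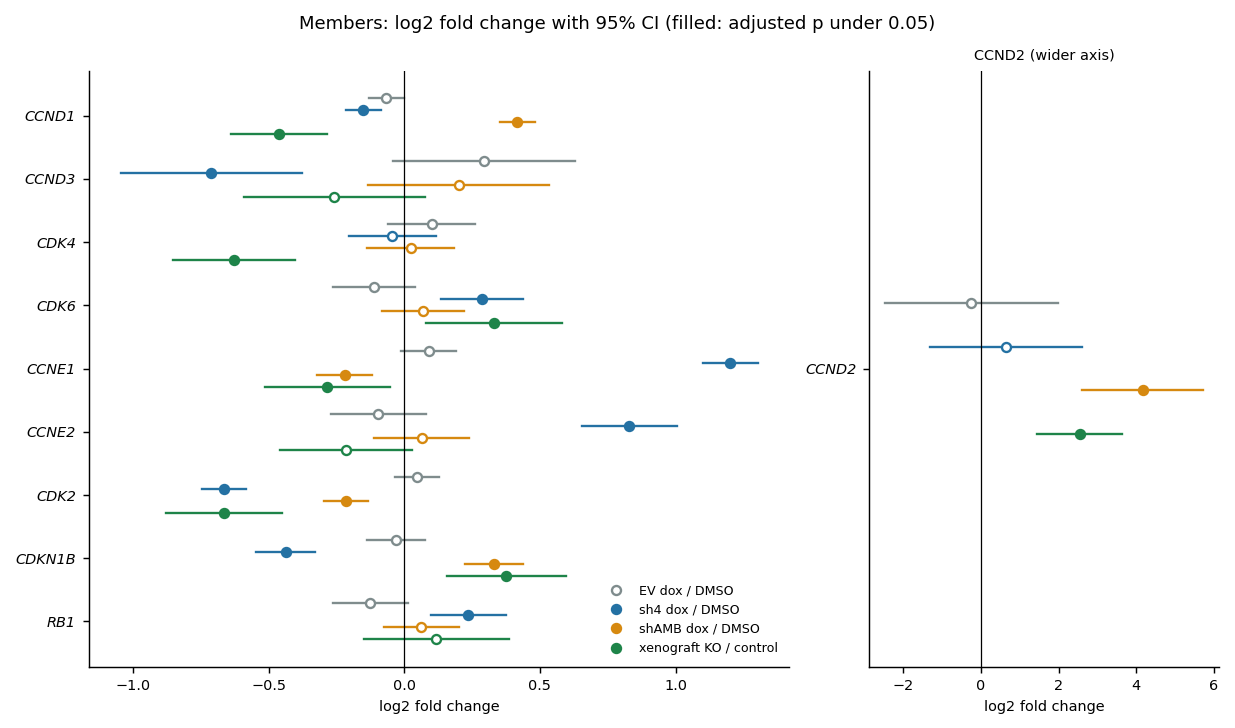
Log2 fold change of each of the 10 genes with its 95% confidence interval from the edgeR fit, for doxycycline against DMSO in EV, sh4 and shAMB and for xenografts labelled RUNX1T1 KO against Control, with filled points where the adjusted p-value was under 0.05. No EV point is filled, the CCNE1 point of sh4 lies at 1.20, the CDK2 points of sh4, shAMB and the xenografts lie at −0.66, −0.21 and −0.66, and CCND2 has a wider axis because its fitted fold change rests on few counts.

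CCND1, the cyclin that receives most mitogenic input, rose with doxycycline in shAMB, a sign that turned with GC content and length trends removed, and was lower in sh4 and in the xenografts labelled RUNX1T1 KO. In shAMB its levels with DMSO were 274, 276 and 267 CPM, and with doxycycline 366, 357 and 368 CPM. The shAMB groups did not overlap, and the 3 doxycycline libraries were the highest of all 18 (log2 fold change 0.42, SE 0.0302, edgeR adjusted p = 9.45e-09). In sh4 the values were 274, 269 and 264 CPM with DMSO and 241, 241 and 244 CPM with doxycycline (−0.15, SE 0.0302, edgeR adjusted p = 0.000807). That difference was small, and over the 13 alternative settings it ran from −0.18 to 0.08 with adjusted p-values from 2.8e-06 to 0.741. In EV CCND1 also stood slightly lower with doxycycline, at 236, 243 and 243 CPM against 253, 251 and 253 CPM (−0.07, edgeR adjusted p = 0.672). The difference between sh4 and EV in this effect was within its error (difference −0.09, 95% interval −0.18 to 0.01, edgeR adjusted p = 0.137).

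In the xenografts CCND1 was at 168, 149, 160 and 158 CPM in those labelled Control, and at 127, 111, 113 and 109.6 CPM in those labelled RUNX1T1 KO. All 4 of the latter lay below all 4 of the former (log2 fold change −0.46, SE 0.0807, edgeR adjusted p = 0.0011), opposite to shAMB. CCND1 has a GC content of 61.9%, the highest of the 10 transcripts, and its sign in shAMB depended on a correction for GC content and length. With these trends removed it was −0.46 (edgeR adjusted p = 0.0363, range over all 13 alternatives 8.24e-27 to 0.0363), so the rise in shAMB does not hold under that setting. The rise was called in 12 of the 13 alternatives. That setting also moved CCND1 in comparisons where it did not pass. It went from −0.07 to −0.32 in EV, and against uninduced EV from 0.09 to −0.36 in uninduced sh4 and from 0.11 to 0.31 in uninduced shAMB. Why the setting moved CCND1 was not tested.

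CCND2 was at or near 0 in most cell culture libraries. The EV libraries had 4, 0 and 2 counts with DMSO against 4, 1 and 0 with doxycycline, and those of sh4 had 0, 3 and 3 against 5, 2 and 2. With so few reads no fold is given for EV or sh4. In shAMB there were 1, 1 and 1 counts with DMSO and 33, 23 and 18 with doxycycline. The ratio of the scaled sums was 19.8 with a 95% counting interval of 6.51 to 98.1, which covers counting error only. Even so the shAMB doxycycline libraries reached only 0.739, 0.402 and 0.415 CPM, far below CCND1.

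The xenografts held more CCND2 reads, with 14, 4, 12 and 54 counts in those labelled Control and 136, 128, 124 and 131 in those labelled RUNX1T1 KO. This corresponds to 0.299, 0.0903, 0.215 and 0.903 CPM against 2.37, 2.25, 1.93 and 2.52 CPM, with no overlap. Control replicate 4 was the highest of its group by far. The ratio of the scaled sums was 5.54 (95% counting interval 4.39 to 7.07) and the fitted log2 fold change 2.54 (SE 0.495, edgeR adjusted p = 0.00208). Without Control replicate 4 the fitted value was 3.46 (edgeR adjusted p = 0.000205, range over all 13 alternatives 1.06e-06 to 0.00744). The filter on low counts kept CCND2 only with the help of the libraries where it was high, so its adjusted p-values are no support. By its counts CCND2 stood higher in the labelled xenografts and with doxycycline in shAMB. CCND1 moved in opposite directions in these 2 comparisons, though in the same direction once GC content and length trends were removed. Per length, CCND2 remained at 0.0130 ± 0.00165 of CCND1 in the xenografts labelled RUNX1T1 KO.

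CCND3, a D-type cyclin of wide expression, was lower with doxycycline in sh4 and did not pass in EV, shAMB or the xenografts. The sh4 libraries were at 13.3, 12.6 and 10.1 CPM with DMSO and 6.28, 6.40 and 9.38 CPM with doxycycline (log2 fold change −0.71, SE 0.157, edgeR adjusted p = 0.00186). The groups did not overlap, but replicate 3 of each lay nearest to the other group. Without doxycycline replicate 3 the value was −0.92 (edgeR adjusted p = 7.3e-05, range over all 13 alternatives 3.4e-06 to 0.0374). In EV the values were 7.30, 9.77 and 9.89 CPM against 11.4, 11.2 and 10.3 CPM (0.29, edgeR adjusted p = 0.672), and between sh4 and EV the effect differed by −1.005 (SE 0.223, edgeR adjusted p = 0.00288). In shAMB they were 9.34, 8.68 and 9.52 CPM against 9.11, 10.96 and 11.6 CPM (0.20, edgeR adjusted p = 0.27), and in the xenografts 8.09, 8.20, 10.7 and 9.23 CPM against 8.75, 6.79, 7.96 and 6.77 CPM (−0.26, edgeR adjusted p = 0.198). Both of these pairs of groups overlapped. With GC content and length trends removed CCND3 was lower in shAMB too, at −0.44 (edgeR adjusted p = 1.41e-05).

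CDK4 is the kinase partner of D-type cyclins and a textbook MYC target. In the main analysis it did not pass in any cell line and was lower in the xenografts labelled RUNX1T1 KO. In sh4 it was at 300.4, 300.2 and 279 CPM with DMSO and at 265, 269.9 and 318 CPM with doxycycline (log2 fold change −0.04, 95% interval −0.21 to 0.12, edgeR adjusted p = 0.662). Replicate 3 of sh4 with doxycycline was the highest of the 6 libraries and without it the value was −0.13 (edgeR adjusted p = 0.121, range over all 13 alternatives 0.121 to 0.99). In shAMB it was at 241, 236 and 258 CPM against 241, 262 and 245 CPM (0.02, 95% interval −0.14 to 0.19, edgeR adjusted p = 0.79). Over the 13 alternatives the shAMB value ran from −0.36 to 0.20 and passed in 2, with opposite signs. CDK4 was lower with GC content and length trends removed (−0.36, edgeR adjusted p = 6.14e-06) and higher on TPM values. In EV it was at 232, 251 and 283 CPM against 279, 282 and 261 CPM (0.10, 95% interval −0.06 to 0.26, edgeR adjusted p = 0.672). All 3 pairs of groups overlapped. In the xenografts the levels were 198, 186, 214 and 212 CPM in those labelled Control and 151, 112, 137 and 124 CPM in those labelled RUNX1T1 KO (−0.63, SE 0.103, edgeR adjusted p = 0.000739). The 2 xenograft groups did not overlap. TSPAN31, on the other strand, overlaps 44.2% of the CDK4 exon bases, and whether counting used the strand is not given in the sources used here. TSPAN31 was at 12.7 CPM in EV with DMSO and had a log2 fold change of −0.66 in the xenografts and −0.79 in shAMB, where CDK4 had 0.02 in the main analysis.

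CDK4 lies at chr12:57747727-57756013 on the minus strand (hg38, GENCODE v44). The 250 bases before its RefSeq start (GRCh38.p14, chr12:57752311-57752560, minus strand) are shown because MYC proteins bind the E-box, whose letters CACGTG are in capitals.

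CDK4: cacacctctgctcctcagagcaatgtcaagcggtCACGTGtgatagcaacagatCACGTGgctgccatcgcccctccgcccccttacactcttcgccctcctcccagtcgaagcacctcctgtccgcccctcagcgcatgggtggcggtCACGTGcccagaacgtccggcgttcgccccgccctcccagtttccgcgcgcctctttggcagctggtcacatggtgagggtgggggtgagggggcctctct

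The window held 3 E-boxes, 216, 196 and 101 bases before the start, where 6.34% of 35116 promoter windows of the same length held at least 1. The letters read the same on both strands. The windows matched for CCND3, CDK6, CDKN1B and CCNE1 held none. Against the GENCODE v44 spans, the CDK4 window lies inside its gene, which reaches further upstream than the RefSeq start. The windows matched for CCND3 and CDKN1B also lie inside their genes, as does that for CDK6 at chr7:92833960-92834209. The window listed for RB1 (chr13:48476200-48476449) lies far inside its gene, whose annotated start is at 48303744, and it alone was not used. These matches describe the letters alone, and no binding was measured in these libraries.

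CDK6, the other partner of D-type cyclins, was higher with doxycycline in sh4 and higher in the xenografts labelled RUNX1T1 KO, both with small changes. Neither passed with GC content and length trends removed. In sh4 the levels were 379.6, 381 and 427 CPM with DMSO and 494, 523 and 432 CPM with doxycycline (log2 fold change 0.29, SE 0.0715, edgeR adjusted p = 0.00432). The DMSO libraries of sh4 were themselves low against EV, which had 532, 481 and 467 CPM with DMSO and 449.6, 449 and 472 CPM with doxycycline (−0.11, edgeR adjusted p = 0.672). In shAMB CDK6 was at 461, 504 and 449.6 CPM against 511, 477 and 495 CPM (0.07, edgeR adjusted p = 0.41). Of the 6 culture groups, 5 formed a run in which each overlapped the next in order, and sh4 with DMSO lay below them. Over the 13 alternatives the sh4 value was 0.12 to 0.45 with adjusted p-values from 0.0003 to 0.0821.

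In the xenografts CDK6 was at 1457, 1273, 1183 and 1227 CPM in those labelled Control and 1387, 1622, 1644 and 1811 CPM in those labelled RUNX1T1 KO. The groups overlapped through the lowest and the highest library (log2 fold change 0.33, SE 0.113, edgeR adjusted p = 0.0373). The call was kept in only 2 of 8 fits that left out 1 library, with adjusted p-values from 0.012 to 0.117. It was lost without Control replicate 2, 3 or 4 (0.0625, 0.117 and 0.112) and without RUNX1T1 KO replicate 2, 3 or 4 (0.0860, 0.0839 and 0.102). Over all 14 alternatives the call was kept in 4. With GC content and length trends removed the value was 0.04 (edgeR adjusted p = 0.747), so the rise does not hold under that setting. In the main analysis CDK4 was lower and CDK6 higher. The ratio of CDK6 to CDK4 per length was 1.10 ± 0.150 in the Control xenografts and 2.17 ± 0.440 in those labelled RUNX1T1 KO, without overlap of the libraries. In cell culture the group means of this ratio lay between 0.233 and 0.343.

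**Figure D2:**
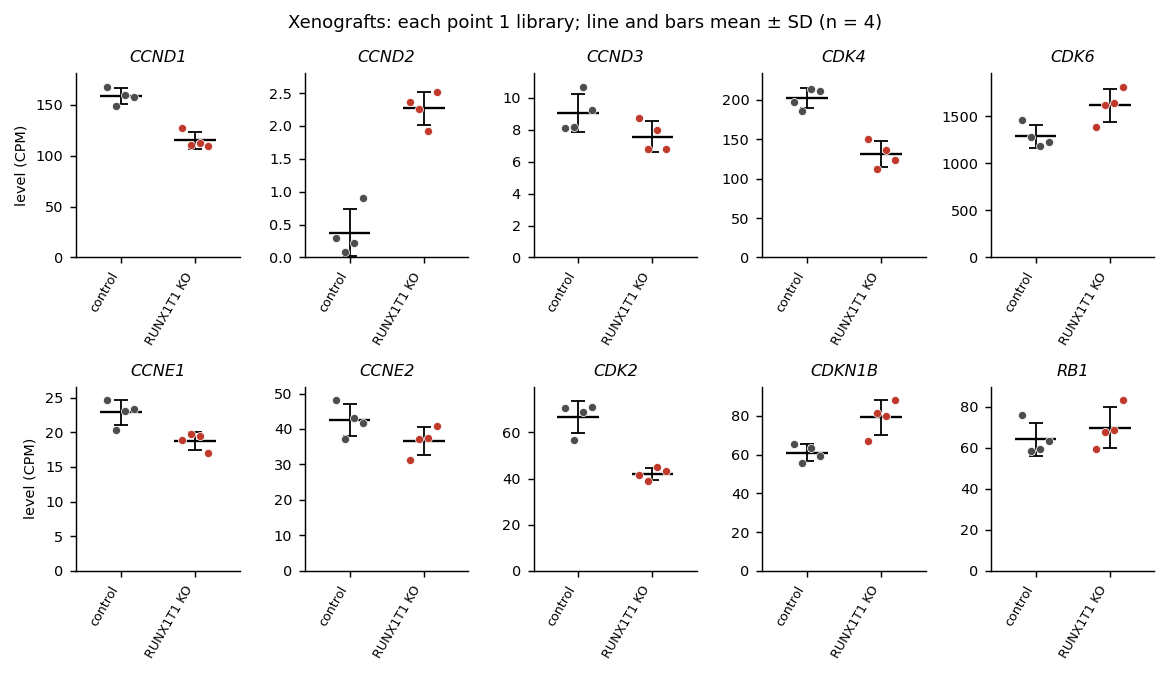
Level of each of the 10 genes in CPM (TMM-scaled, axes from 0) in the 4 xenografts labelled Control and the 4 labelled RUNX1T1 KO, with points for single libraries and line and bars for mean ± SD. CCND1, CDK4, CDK2 and CCNE1 lie lower in the labelled xenografts and CCND2 and CDKN1B higher, without overlap, while CCND3, CCNE2, CDK6 and RB1 overlap.

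CCNE1, the E-type cyclin that drives CDK2 at the end of G1, gave the largest change among the 9 members other than CCND2, a rise in sh4. Its levels were 23.4, 24.2 and 25.0 CPM with DMSO and 57.2, 54.9 and 54.9 CPM with doxycycline. This was a 2.30-fold rise with little spread (log2 fold change 1.20, SE 0.0472, edgeR adjusted p = 3.33e-11). The value was 1.16 to 1.34 over all 13 alternatives, each past the threshold. In EV the levels were 25.2, 24.8 and 25.0 CPM against 26.0, 26.2 and 27.7 CPM (0.09, 95% interval −0.01 to 0.19, edgeR adjusted p = 0.672). In shAMB CCNE1 was lower, at 26.1, 25.4 and 25.1 CPM with DMSO and 22.4, 22.3 and 21.0 CPM with doxycycline (−0.22, SE 0.0474, edgeR adjusted p = 0.000767). The other 15 culture libraries lay between 21.0 and 27.7 CPM, so the 3 sh4 doxycycline libraries were separate from all of them.

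In the xenografts CCNE1 was at 24.7, 20.3, 23.1 and 23.4 CPM in those labelled Control and 18.9, 19.8, 19.5 and 17.0 CPM in those labelled RUNX1T1 KO. The groups did not overlap, but the margin was small (log2 fold change −0.28, SE 0.105, edgeR adjusted p = 0.0489). Only the fit without Control replicate 2 kept the call among the 8 that left out 1 library. The other 7 gave adjusted p-values up to 0.11, so this call rests on each of Control replicates 1, 3 and 4 and of RUNX1T1 KO replicates 1 to 4.

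CCNE1 lies at chr19:29811991-29824312 on the plus strand (hg38, GENCODE v44). The 250 bases before its RefSeq start (GRCh38.p14, chr19:29811741-29811990, plus strand) are shown for the gene with the largest rise, with GC boxes (GGGCGG, or CCGCCC on the other strand), the letters that SP1 recognises, in capitals.

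CCNE1: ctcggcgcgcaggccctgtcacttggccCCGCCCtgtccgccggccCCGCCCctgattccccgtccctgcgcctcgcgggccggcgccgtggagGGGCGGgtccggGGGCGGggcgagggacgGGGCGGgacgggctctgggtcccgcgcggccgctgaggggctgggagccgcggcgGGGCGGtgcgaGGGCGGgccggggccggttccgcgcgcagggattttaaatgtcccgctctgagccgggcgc

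This window held 7 GC boxes, 222 to 61 bases before the start, where 42.6% of windows held at least 1, and its GC content was 81.2%. The E2F motifs searched on both strands (TTTCCCGC, TTTCGCGC, TTTGCCGC and TTTGGCGC, found in 2.79% of windows) were in neither printed window.

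CCNE2, the second E-type cyclin, also rose in sh4, and in the main analysis not beyond its error elsewhere. The sh4 levels were 42.7, 50.3 and 51.0 CPM with DMSO and 93.1, 87.8 and 74.8 CPM with doxycycline (log2 fold change 0.83, SE 0.0822, edgeR adjusted p = 8.54e-07). Replicate 3 with doxycycline was the lowest of its group and still above all other culture libraries. Without it the value was 0.91 (edgeR adjusted p = 1.07e-07, range over all 13 alternatives 3.02e-16 to 0.00264). In EV CCNE2 was at 58.2, 55.2 and 50.4 CPM against 51.0, 52.4 and 49.9 CPM (−0.10, edgeR adjusted p = 0.672). In shAMB it was at 54.5, 59.5 and 56.9 CPM against 61.6, 60.7 and 56.4 CPM (0.06, 95% interval −0.11 to 0.24, edgeR adjusted p = 0.5). In the xenografts it was at 48.2, 37.3, 43.1 and 41.7 CPM against 31.2, 37.1, 37.5 and 40.9 CPM (−0.21, 95% interval −0.46 to 0.03, edgeR adjusted p = 0.147). With GC content and length trends removed CCNE2 was called lower in the xenografts (−0.32, edgeR adjusted p = 0.00212) and higher in shAMB (0.14, edgeR adjusted p = 0.00558). TPM values also called it higher in shAMB. INTS8, on the other strand, overlaps 37.1% of CCNE2 exon bases and had a log2 fold change of 0.35 in sh4 (edgeR adjusted p = 0.00168), less than that of CCNE2. The part of reads from INTS8 in the CCNE2 values was not tested.

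CDK2, the kinase that E-type cyclins activate, was lower in all 3 comparisons, sh4, shAMB and the xenografts labelled RUNX1T1 KO. In sh4 it fell from 92.6, 93.6 and 93.6 CPM with DMSO to 59.1, 59.1 and 58.4 CPM with doxycycline (log2 fold change −0.66, SE 0.0381, edgeR adjusted p = 1.86e-09). Here the 2 genes of the CCNE1 and CDK2 complex moved in opposite directions in the same libraries. In shAMB the levels were 94.3, 94.97 and 95.5 CPM against 83.9, 84.6 and 76.9 CPM (−0.21, SE 0.0379, edgeR adjusted p = 0.000136). The EV libraries stayed within 90.8 to 97.5 CPM in both groups (0.05, 95% interval −0.03 to 0.13, edgeR adjusted p = 0.672). In the xenografts CDK2 was at 70.8, 56.5, 68.9 and 70.8 CPM in those labelled Control and 41.4, 39.0, 45.1 and 43.1 CPM in those labelled RUNX1T1 KO. All labelled xenografts lay below the Control ones (−0.66, SE 0.0967, edgeR adjusted p = 0.000369), including Control replicate 2, which stood apart below its group. The sh4 value was −0.70 to −0.48 over its 13 alternatives, each past the threshold, and the xenograft value passed in 13 of 14. The shAMB value ran from −0.35 to −0.03 and passed in 12 of 13.

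CDKN1B, which encodes the inhibitor p27, was lower with doxycycline in sh4 but higher in shAMB and in the xenografts labelled RUNX1T1 KO. The sh4 levels were 87.7, 93.0 and 96.2 CPM with DMSO and 71.1, 69.7 and 63.7 CPM with doxycycline (log2 fold change −0.44, SE 0.0507, edgeR adjusted p = 4.73e-06). The shAMB levels were 101, 106 and 99.1 CPM with DMSO and 131, 129 and 125 CPM with doxycycline (0.33, SE 0.0504, edgeR adjusted p = 3.39e-05). Neither pair of groups overlapped, and the sh4 doxycycline libraries were the lowest and the shAMB doxycycline libraries the highest of all 18. The EV libraries lay at 94.6, 93.8 and 89.2 CPM against 87.3, 89.7 and 94.8 CPM (−0.03, 95% interval −0.14 to 0.08, edgeR adjusted p = 0.774). In the xenografts CDKN1B was at 65.6, 55.8, 63.2 and 59.4 CPM in those labelled Control and 66.8, 81.7, 80.2 and 88.1 CPM in those labelled RUNX1T1 KO. The lowest of the latter lay just above the highest of the former (0.38, SE 0.0994, edgeR adjusted p = 0.0112). The sign was kept under all 13 alternatives in sh4, all 13 in shAMB and all 14 in the xenografts, and the call in 13, 13 and 12 of them.

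RB1, the substrate of both kinase steps, passed in sh4 alone in the main analysis. It was higher with doxycycline in sh4, at 79.8, 85.8 and 88.1 CPM with DMSO and 106, 103 and 90.0 CPM with doxycycline (log2 fold change 0.24, SE 0.0650, edgeR adjusted p = 0.00839). The groups did not overlap, but doxycycline replicate 3 lay just above the highest DMSO library. Without DMSO replicate 1 the value was 0.18 (edgeR adjusted p = 0.0816, range over all 13 alternatives 0.0002 to 0.235). With GC content and length trends removed it was 0.04 (edgeR adjusted p = 0.235). In EV RB1 was at 97.6, 90.8 and 84.2 CPM against 83.3, 83.2 and 83.6 CPM (−0.12, edgeR adjusted p = 0.672). In shAMB it was at 99.7, 103 and 98.5 CPM against 110.5, 105 and 98.5 CPM (0.06, 95% interval −0.08 to 0.20, edgeR adjusted p = 0.408). In the xenografts it was at 75.9, 58.5, 59.4 and 63.4 CPM against 59.3, 67.8, 68.6 and 83.5 CPM (0.12, 95% interval −0.15 to 0.39, edgeR adjusted p = 0.466). In order of level each culture group overlapped the next.

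**Figure D3:**
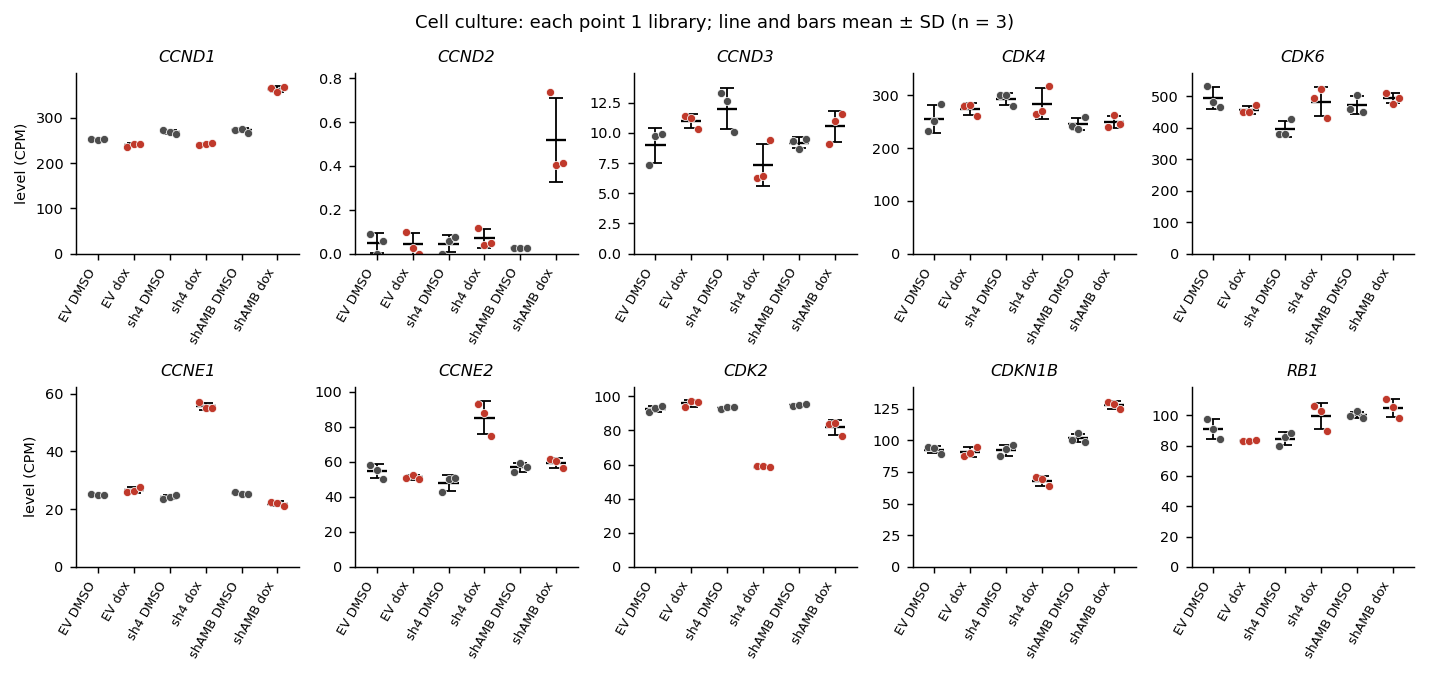
Level of each of the 10 genes in CPM (TMM-scaled, axes from 0) in the 6 cell culture groups, with grey points for DMSO libraries, red points for doxycycline libraries, and line and bars for mean ± SD (n = 3). The sh4 doxycycline libraries stand apart from all others for CCNE1 (54.9 to 57.2 CPM), CCNE2 and CDK2, and the shAMB doxycycline libraries for CCND1 and CDKN1B.

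Whether the doxycycline effect itself differed between lines was tested by interaction. Against EV, the effect in sh4 differed for 7 of 10 members, where 32.6% of all genes tested did. It was higher for CCNE1 (1.11), CCNE2 (0.93), CDK6 (0.40) and RB1 (0.36), and lower for CCND3 (−1.005), CDK2 (−0.71) and CDKN1B (−0.41), as log2 differences. With GC content and length trends removed 5 members passed. CDK6 (0.18, edgeR adjusted p = 0.0671) and RB1 (0.08, edgeR adjusted p = 0.128) did not. The effect in shAMB differed from EV for 4 of the 9 members other than CCND2, where 45.5% of all genes did. It was higher for CCND1 (0.48, but −0.14 with GC content and length trends removed) and CDKN1B (0.36), and lower for CCNE1 (−0.31) and CDK2 (−0.26). These tests use the same EV libraries. CCND2 is left out of the counts that involve shAMB, because it was tested in culture only through the shAMB libraries with doxycycline.

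The 2 hairpin lines differed from each other in 6 of the 9 members other than CCND2, where 60.9% of all genes tested differed. As sh4 minus shAMB, the log2 difference in effect was 1.42 (SE 0.0667, edgeR adjusted p = 1.62e-10) for CCNE1 and 0.76 for CCNE2. It was −0.77 (SE 0.0715, edgeR adjusted p = 3.03e-07) for CDKN1B, −0.57 for CCND1, −0.45 for CDK2 and −0.91 for CCND3. With GC content and length trends removed the CCND1 difference turned to 0.54, and that of CCND3 shrank to −0.08 (edgeR adjusted p = 0.452). CDK2 was thus lower in both lines and more so in sh4. For CDK6 (0.22), RB1 (0.17) and CDK4 (−0.07, 95% interval −0.30 to 0.16) the difference did not pass. Without replicate 3 of sh4 with doxycycline CDK6 reached 0.33 (edgeR adjusted p = 0.00489, range over all 19 alternatives 0.000144 to 0.189) and RB1 0.28 (edgeR adjusted p = 0.00792, range 0.00792 to 0.255), and without DMSO replicate 3 of sh4 CDK6 reached 0.28 (edgeR adjusted p = 0.0277).

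**Figure D4:**
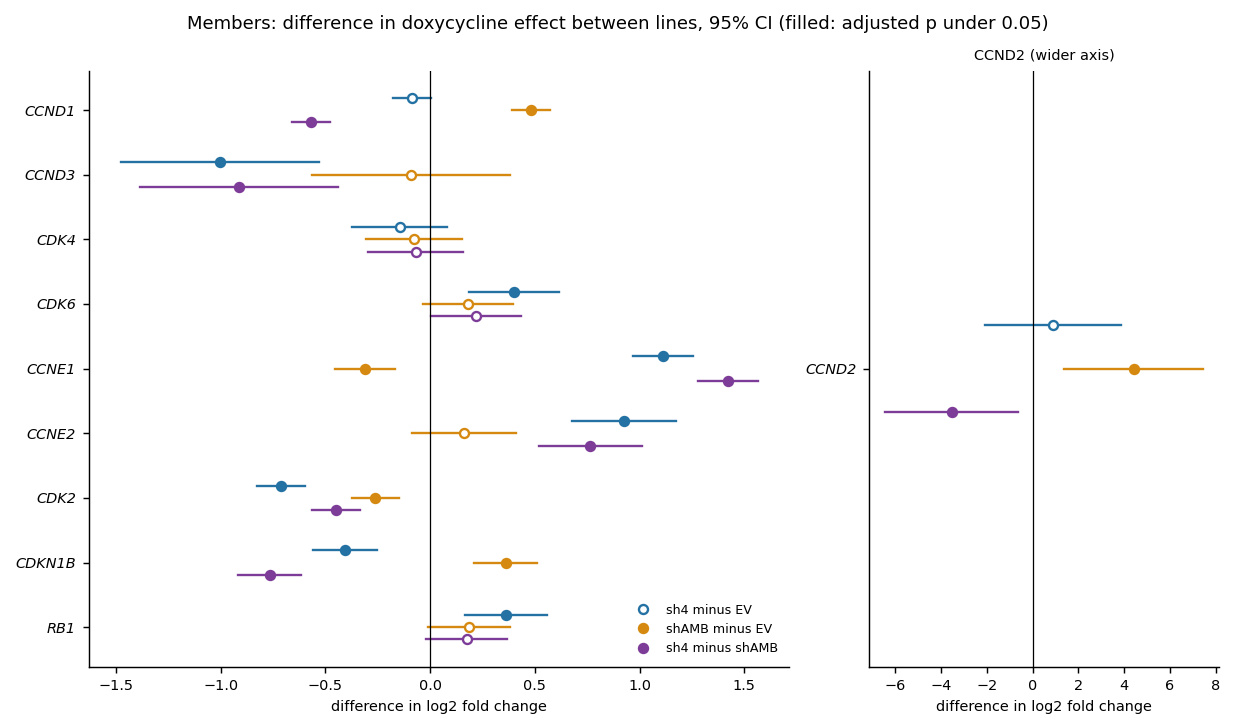
Difference between lines in the log2 fold change with doxycycline for each of the 10 genes, with 95% confidence intervals from the edgeR fit and filled points where the adjusted p-value was under 0.05. For CCNE1 the points lie at 1.11 (sh4 minus EV), −0.31 (shAMB minus EV) and 1.42 (sh4 minus shAMB), all 3 CDK4 intervals include 0, and CCND2, which rests on few counts and is not counted among the differences with shAMB, has a wider axis.

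The lines were also compared before induction. Between sh4 and EV with DMSO 1 of 10 members was called, where 1.12% of all genes tested were. This was CDK6, lower in sh4 at 379.6, 381 and 427 CPM against 532, 481 and 467 CPM (log2 fold change −0.32, SE 0.0715, edgeR adjusted p = 0.0417). The call was lost without EV DMSO replicate 1 or 2 or sh4 DMSO replicate 1 or 2, with values of −0.26, −0.34, −0.30 and −0.29 and adjusted p-values of 0.219, 0.107, 0.23 and 0.197. At an unadjusted p under 0.05 there were 5 of 10 members, where 28% of all genes were. Between shAMB and EV with DMSO 0 of 10 members were called, where 1.52% of all genes were. At an unadjusted p under 0.05 there were 3 members there, namely CCND1, CDKN1B and RB1, where 11% of all genes were, and DESeq2 called CCND1 alone.

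Ratios within a library place the partners beside each other, here as CPM per kb. The ratio of CCNE1 to CDK2 had group means between 0.305 and 0.327 in 5 of the 6 culture groups, and was 1.11 ± 0.0236 in sh4 with doxycycline. In the xenografts it was 0.404 ± 0.0159 in those labelled Control and 0.527 ± 0.0560 in those labelled RUNX1T1 KO. The ratio of CDK2 to its inhibitor CDKN1B went from 1.11 ± 0.0458 to 0.952 ± 0.0496 in sh4, where both RNAs fell. In shAMB it went from 1.03 ± 0.0370 to 0.703 ± 0.0215, and in the xenografts from 1.20 ± 0.0816 to 0.591 ± 0.0732, where CDK2 fell and CDKN1B rose. CCNE2 exceeded CCNE1 per length in every group mean, with a ratio of 1.09 ± 0.104 in sh4 with doxycycline and 1.94 ± 0.0258 in shAMB with doxycycline.

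Beyond the 10 members, 39 other genes of the G1 and RB1 pathway were examined, from INK4 inhibitors to the ubiquitin ligases that turn over cyclins and p27. In EV 0 of 39 passed, also at an unadjusted p under 0.05 and with DESeq2. In sh4 23 of 39 were called (12 higher, 11 lower), in shAMB 21 (10 higher, 11 lower) and in the xenografts labelled RUNX1T1 KO 19 (6 higher, 13 lower). Over all genes the shares called were 40.9%, 66% and 41.1%, so that 21 of 39 in shAMB was no more than the share of all genes. The median log2 fold changes of the 39 genes were −0.01, −0.01 and −0.12, against −0.005, 0.10 and 0.02 over all genes. The genes called with 1 sign in all 3 comparisons were CDK1, CKS1B and FBXW7. CDK1, the kinase of mitotic entry, had log2 fold changes of −0.23, −0.70 and −0.59, in the order sh4, shAMB, xenografts. CKS1B, the cofactor with which SKP2 marks p27 for degradation, was at −0.40, −0.52 and −0.61. FBXW7, the ligase subunit that recognises phosphorylated cyclin E, was at 1.11 (edgeR adjusted p = 1.04e-08), 0.45 and 0.42. In sh4, FBXW7 and CCNE1 thus rose in the same libraries.

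E2F7, a repressor of E2F targets that E2F factors themselves raise, was called in all 3 comparisons. Its log2 fold change was 1.01 (SE 0.0549) in sh4, −1.77 (SE 0.0580) in shAMB and −1.84 (SE 0.118) in the xenografts labelled RUNX1T1 KO, with edgeR adjusted p-values of 1.04e-09, 1.36e-12 and 4.26e-06. This was the same order of signs as for CCNE1. CCNA1, a cyclin A best known from germ cells, was at −0.93 in sh4 (SE 0.267, edgeR adjusted p = 0.0109). Its level was low, with a mean of 1.01 CPM in culture, just above the limit for naming a gene. In shAMB the INK4 inhibitor CDKN2D was at 1.12 and CDKN1A (p21), a relative of CDKN1B and a p53 target, at −0.84. In the xenografts the kinase DYRK1B was at −0.91 and E2F2, an activating E2F factor, at −0.85. By role, 6 of 10 E2F and DP factors were lower and 0 higher in the xenografts, where 19.9% of all genes were lower and 21.2% higher. In sh4 5 of the 10 were higher and 2 lower, where 22.9% and 18% of all genes were. The roles were examined with these values known, and the difference between the comparisons was not tested.

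**Figure D5:**
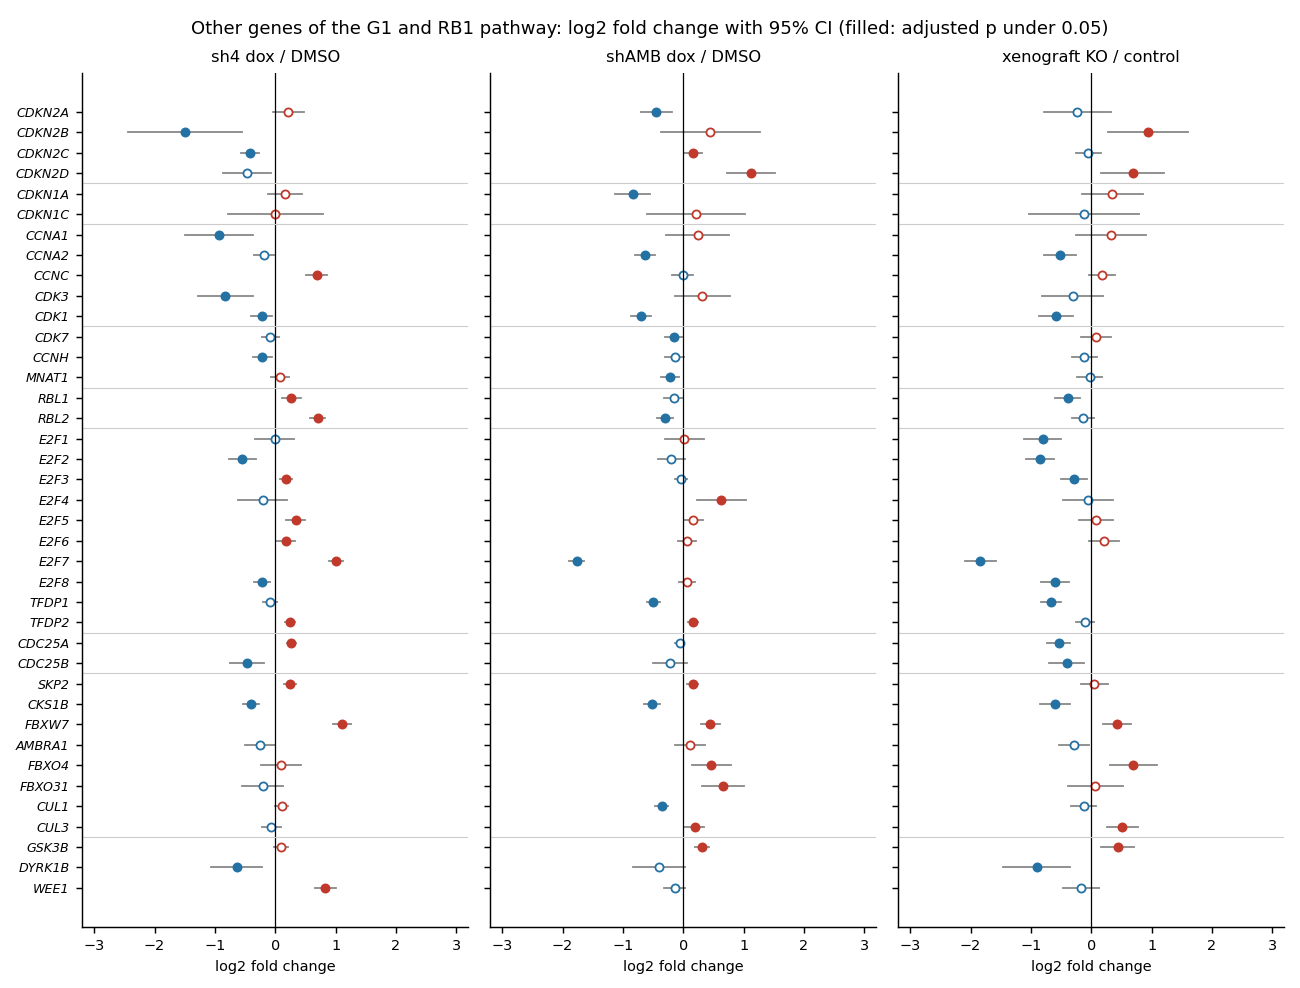
Log2 fold change of the 39 other pathway genes with 95% confidence intervals from the edgeR fits, in sh4, in shAMB and in xenografts labelled RUNX1T1 KO, grouped by role from INK4 inhibitors at the top to upstream kinases at the bottom, with filled points where the adjusted p-value was under 0.05 (red higher, blue lower). E2F7 lies at 1.01, −1.77 and −1.84 in the 3 panels.

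Of 20 textbook E2F targets, which act downstream of RB1 and of which 4 are also in the pathway list, 7 were called in sh4 (2 higher, 5 lower), 13 in shAMB (1 higher, 12 lower) and 19 in the xenografts (0 higher, 19 lower). The shares of all genes called were 40.9%, 66% and 41.1%, so the counts in sh4 and shAMB lie near those of all genes, while 18%, 28.4% and 19.9% of all genes were lower. The median log2 fold change of the targets was −0.13, −0.22 and −0.57, against −0.005, 0.10 and 0.02 over all genes. In shAMB the extremes were MCM5, a subunit of the replicative helicase, at 0.99, RRM2, a subunit of ribonucleotide reductase, at −0.84 and CCNA2, the S-phase cyclin, at −0.63. In the xenografts RRM2 was at −1.03 and CCNA2 at −0.52. With GC content and length trends removed the counts were 15 (2 higher, 13 lower) in sh4 and 20 (1 higher, 19 lower) in shAMB. Calls over all genes were then 3270 higher and 4887 lower in sh4, and 4231 higher and 6328 lower in shAMB. With limma on TPM the direction in sh4 turned, to 6 higher and 2 lower, where 5293 of all genes were higher and 1321 lower. In the xenografts 1 target passed under that setting, a lower one, where 379 of all genes were higher and 340 lower. In the xenografts the targets were lower in the same libraries as CCND1, CDK4 and CDK2, on the counts.

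Markers of KELLY cells were called in both directions in sh4 and in shAMB. The 9 sympathetic neuroblast markers summed here, MYCN and HAND2 among them, were all detected in every group. Their summed level was 4190 to 4500 CPM with DMSO and 8360 to 9210 CPM with doxycycline in shAMB, 4740 to 5980 CPM in Control xenografts and 7600 to 10700 CPM in those labelled RUNX1T1 KO. In sh4 it was 4480 to 5360 and 5370 to 6870 CPM, and in EV 4400 to 5040 and 4970 to 5310 CPM. Most of the rise in shAMB and the xenografts was MYCN, which was at 2128 ± 42.5 CPM with DMSO and 6316 ± 327 CPM with doxycycline in shAMB (n = 3 each), and at 2595 ± 201 and 7157 ± 1135 CPM in the xenografts (n = 4 each). Of the 9 markers, 4 were higher and 3 lower in sh4 (GATA3, TH and CHGA), 5 were higher and 1 lower in shAMB (HAND2, log2 fold change −0.55), and 3 were higher in the xenografts (edgeR, adjusted p under 0.05). Over all genes the shares called were 40.9%, 66% and 41.1% in that order. The marker counts in shAMB and the xenografts thus lie near or below those of all genes. Their part in the members' values was not tested, and in bulk RNA fewer cells of a type and less RNA per cell cannot be told apart. Of cells a host could add, the 6 leukocyte markers summed to at most 2.79 CPM in the xenografts, the 5 endothelial ones to at most 1.92 CPM and the 4 red blood cell ones to at most 0.135 CPM, with HBA1, HBA2 and HBB at 0. Reads were matched to the human build hg38, so RNA of the mouse host could be counted only through conserved sequence. Low sums therefore cannot show how much host tissue the tumours held. Fibroblast markers summed to 48.5 to 82 CPM in Control xenografts and 74.9 to 116 CPM in those labelled RUNX1T1 KO, and to 70.8 to 131 CPM in the cultures, which hold no host cells.

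The genes whose pattern was most like that of a member were taken as the 2 with the highest Pearson r of log2 CPM over the 18 culture libraries, which share groups, so that r is a description only. For CDK2 these were NOLC1 (r = 0.994) and PPP1R11 (0.989), and over the 8 xenografts the same pairs had 0.949 and 0.820. For CDKN1B they were AKIRIN2 (0.990) and LIG4 (0.986), with 0.935 and 0.974 in the xenografts. For CCNE1 they were FBXO21 (0.992) and PKD2 (0.986), with 0.359 and 0.639 in the xenografts. For CCND1 they were ADAM12 (0.989) and MAB21L2 (0.985), whose r turned to −0.966 and −0.952 in the xenografts. For CCND3 they were GLTSCR2 (0.958) and FAM163A (0.955), for CDK6 TRIM33 (0.935) and REV3L (0.928), for CDK4 PGAM5 (0.966) and ASNA1 (0.963), and for RB1 RB1CC1 (0.982) and SCAF8 (0.980), all positive in the xenografts too. For CCNE2 they were YOD1 (0.988) and CDC23 (0.982), at −0.0325 and 0.0724 in the xenografts, and for CCND2, which rests on few counts, ANKRD34A (0.931) and USP30 (0.930).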

How the data were processed

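Groups were taken from the sample labels. In the culture count table the words Neg and Pos in the column names were taken to mean DMSO and doxycycline, on which every culture direction rests. Nothing in the labels says that replicates were separate cultures, so p-values measure the spread between these libraries, which may be technical. The labels name a stranded total RNA kit and also polyA RNA, and this is not settled. Per the submitters' processing notes the tools were STAR, SAMtools and RSEM with build hg38. For these libraries versions, annotation and strand setting are not given in the sources used here (the study states tool versions for its mouse ganglia only). The authors deposited RSEM expected counts, which are estimated counts and need not be whole, and TPM, in which the authors divide by gene length and library size. Labels name no molecular identifiers, so counting intervals cover counting error only.

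Expected counts were rounded and analysed in R 4.3.3 with edgeR 4.0.16 (filterByExpr, TMM, glmQLFit and glmQLFTest, two-sided, Benjamini-Hochberg over all genes tested). One model with group means covered the 18 culture libraries and a separate model the 8 xenografts. TMM factors were 0.974 to 1.07 and 0.936 to 1.09, and the biological coefficient of variation of the trend was 0.115 and 0.186. Replicates of 1 group differed by a chi-square per degree of freedom of 1.8 to 62.7 in culture and 27.5 to 248 in xenografts, so each library counted once. The fits were checked on simulated counts.

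Alternatives were RLE scaling, no filter, DESeq2 1.42.0, only the groups compared, a replicate block, limma 3.58.1 on log2(TPM + 1) for genes with a mean TPM of at least 1, removal of GC content and length trends (lowess, span 0.3, GC known for 91.1% of culture genes tested), and leaving out each library. Ratios of CCND2 use summed counts with exact binomial intervals. The members and lists were chosen with earlier results of these data known. Named were all members and, of the pathway list, genes called with 1 sign in sh4, shAMB and xenografts and the 3 with the largest change per comparison at a mean of at least 1 CPM, and up to 3 E2F targets with the largest change in shAMB. The TSPAN31 and INTS8 values, the roles, single neuroblast markers and RRM2 and CCNA2 in xenografts were added after values were seen. RefSeq promoter windows were matched by symbol for CCND3, CDK4, CDK6, CDKN1B, RB1 (far inside the gene and not used) and CCNE1. CCND1, CCND2, CCNE2 and CDK2 had no entry. One gene of the neuroblast marker list is not reported here and is left out of its sum.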

Additional observations from a re-analysis of the deposited data

Results flagged for a closer look

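In the xenografts labelled Control, replicate 2 stood apart for CDK2, at 56.5 CPM against 68.9 to 70.8 CPM in the other 3 libraries. Its gap to the nearest library exceeded the 95% critical value of Dixon's test, of 20 groups of xenograft values examined, and chance flags about 1 group in 20. All 4 xenografts labelled RUNX1T1 KO lay lower still, at 39.0 to 45.1 CPM.

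The doxycycline effect of 7 members differed between sh4 and EV by an interaction test (edgeR, adjusted p under the 0.05 threshold). The log2 differences were −1.005 for CCND3, 1.11 for CCNE1, 0.93 for CCNE2, 0.40 for CDK6, −0.71 for CDK2, −0.41 for CDKN1B and 0.36 for RB1. CDK6 (0.18) and RB1 (0.08) did not pass with GC content and length trends removed. Between shAMB and EV 4 of the 9 members other than CCND2 differed, with 0.48 for CCND1 (−0.14 with GC content and length trends removed), −0.31 for CCNE1, −0.26 for CDK2 and 0.36 for CDKN1B.

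Between sh4 and shAMB 6 of the 9 differed, with −0.57 for CCND1 (0.54 with these trends removed) and −0.91 for CCND3 (−0.08 with them removed). The others were 1.42 for CCNE1, 0.76 for CCNE2, −0.45 for CDK2 and −0.77 for CDKN1B. The 3 families of differences share libraries and are not independent of each other.

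CCND2 also passed both tests that involve shAMB, with fitted values of 4.42 for shAMB minus EV and −3.53 for sh4 minus shAMB, but it is not counted among the differences. It was tested in culture only through the shAMB libraries with doxycycline and had 0 to 5 counts in each EV and sh4 library, so these fitted values depend on the prior count. The first call was lost without EV DMSO replicate 1 and the second in 8 of 12 fits that left out 1 library.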

How the results depend on the processing

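Of 1346 values of members under an alternative, 1207 kept direction and side of the threshold, 56 lost and 22 gained a call, 50 moved and 11 reversed. Removing GC content and length trends changed most, and it lowered the median of all genes by 0.179 in shAMB and by 0.106 in the xenografts. Of all calls, 40.1% were then higher in sh4 and in shAMB (56.0% and 56.9% in the main analysis) and 38.6% in the xenografts (51.6%). Members called became 5 in sh4, 10 in shAMB (4 higher, 6 lower), 9 for shAMB minus EV and 2 for uninduced sh4 against EV. Over all genes, calls became 3270 higher and 4887 lower in sh4, and 4231 higher and 6328 lower in shAMB. They became 3168 higher and 5533 lower for shAMB minus EV, and 378 higher and 256 lower for uninduced sh4 against EV. E2F targets called became 15 in sh4 and 20 in shAMB (every setting for the E2F list, and this one and TPM for the pathway list, were chosen after seeing the data). Values that reversed under it were CCND1 at 0.0803 in sh4, −0.46 in shAMB, −0.14 for shAMB minus EV and 0.54 for sh4 minus shAMB, CCND3 at −0.44 in shAMB, CDK4 at −0.36 in shAMB and 0.42 for sh4 minus shAMB, CDK6 at −0.30 in shAMB and −0.24 for shAMB minus EV, and CDKN1B at 0.10 for uninduced sh4 against EV. The causes were not tested.

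With limma on log2(TPM + 1), whose fold changes understate low genes, the median of all genes rose by 0.142 in sh4 and 0.11 in shAMB, and 80.0% and 70.6% of calls were higher. CCND1 in sh4 reversed to 0.0235, shAMB gave 7 members higher and 0 lower, and the xenografts gave 0 (0 at an unadjusted p under 0.05), with 1 pathway gene and 1 E2F target. Over all genes the xenografts then had 379 calls higher and 340 lower, against 3382 and 3173 in the main analysis. E2F targets in sh4 turned to 6 higher and 2 lower. With only the groups compared, members called in sh4 were 5, since CDK6, CCND1 and RB1 were lost and CCND2 was not tested. Uninduced sh4 against EV gave 0 with RLE, with no filter, with only the groups compared, with the replicate block and with TPM (3 to 5 at an unadjusted p under 0.05), and 0 to 1 when leaving out a library, while DESeq2 gave 1 for uninduced shAMB against EV.

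Replicate numbers did not pair the samples, with same-number correlations of −0.603 to 0.374. With the replicate block, xenograft members called were 4 (CCND1, CCND2, CDK4 and CDK2), culture counts of the 3 lines were as without it, and 1 of 4 xenograft numbers correlated best with itself. CCND2 is limited by depth in culture.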
